A study of Homo sapiens with 6 samples.

Results

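The nuclear-coded subunits of the respiratory chain and of ATP synthase were described in 3 human myeloma lines sorted by CD24, a glycosylated surface protein. Members were taken by symbol: every gene whose name begins with NDUFA, NDUFB, NDUFC, NDUFS, NDUFV, UQCR, COX4, COX5, COX6, COX7, COX8 or ATP5, plus CYC1, SDHA, SDHB, SDHC and SDHD. This found 91 of the 19775 named genes, each represented by its brightest probe set, and 86 of them passed the limit on dim signals, against 12078 of all genes. By complex the members were 33 subunits of complex I, 3 of complex II, 7 of complex III, 17 of complex IV and 17 of complex V. A further 8 were assembly factors of complex I, caught by their letters (NDUFAF1 to NDUFAF8), and 6 were the ATP synthase inhibitor ATP5IF1, a pair of pseudogenes and 3 antisense or divergent transcripts. The members below the limit were COX6B2, COX7A1, COX8C, ATP5MF and the pseudogene COX6A1P1. ATP5MF had 1 probe set, at 7.36 to 20.1, and its value rests on that probe set alone. SDHB, though named in the rule, was not among the members found, so complex II stands for SDHA, SDHC and SDHD. NDUFS5, NDUFS8, NDUFC2 and UQCRH share their probe sets with other genes, and these and some other subunits were not analysed here.

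The respiratory chain sits in the inner mitochondrial membrane. Complex I takes electrons from NADH and complex II from succinate, complex III passes them to cytochrome c, and complex IV gives them to oxygen; complexes I, III and IV pump protons, and complex V, ATP synthase, uses the proton gradient to make ATP. Most subunits are coded in the nucleus, made in the cytosol and imported, while a few core subunits are coded by mitochondrial DNA, so that every complex except II is assembled from the products of both genomes. Plasma cells, the cell type from which myeloma arises, secrete antibody in bulk and draw on this machinery for energy.

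The samples were CD24+ and CD24- cells of OPM2, ARP1 and OCI-MY5, lines grown from multiple myeloma in RPMI-1640 with serum and separated in a flow cytometer by staining for CD24. The submitters call the CD24+ cells cancer stem cell populations, and the study set them against the CD24- cells. There was 1 array of each fraction of each line, 6 in all, and no label says that a fraction was grown or sorted more than once. Values are MAS5 intensities, a linear measure of probe set brightness, and differences are in log2(intensity + 16), where the added 16 shrinks changes of dim genes. The number of arrays limits the precision of every value.

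Before the results, 1 array has to be set apart. The CD24+ array of OPM2 had spike-in controls at a geometric mean of 37362, against 6175 to 7399 on the other 5 arrays, and a median intensity of 135 against 69.0 to 84.2. The ratio of 3′ to 5′ signal of ACTB, which grows as RNA becomes shorter, was 27.1 and 7.54 in CD24+ and CD24- OPM2 cells, 2.63 and 2.47 in those of ARP1 and 9.36 and 23.2 in those of OCI-MY5. All 9 plasma cell markers, among them SDC1, TNFRSF17 and IRF4, lay above the highest TrpnX control on every array. Summed T and NK cell markers (5 genes, none of them above that control on all arrays) reached 5438 and 7050 in CD24+ and CD24- ARP1 cells through GNLY, against 85.0 to 508 elsewhere, and the erythroid marker HBB 2298 and 1792 in those of OPM2, against 76.2 to 225 elsewhere. The part of these measures in the results below was not tested. The 6 probe sets of CD24 itself ran from 1.69 to 140, all under the limit, so they give no check of the sort.

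With the deposited scaling the lines differed in single subunits of each of the 5 complexes, and the members' share of called genes was near that of all genes in 2 comparisons and below it in OPM2 against OCI-MY5, a difference that was not tested. After centring each array on its median no subunit of complexes II and III was called. As in any bulk sample, fewer cells of a type and less RNA per cell cannot be told apart. Each line's pair of arrays, CD24+ and CD24-, served as its samples in a limma fit over all tested genes with Benjamini-Hochberg adjustment. Between OPM2 and ARP1 the adjusted p was under 0.05 for 25% of all tested genes (3018 of 12078) and for 21 of the 86 tested members, or 24.4%, of which 15 were higher and 6 lower in OPM2. Between OPM2 and OCI-MY5 it was 26.1% of all genes (3150) and 14 members, or 16.3%, with 8 higher and 6 lower in OPM2. Between ARP1 and OCI-MY5 it was 2.62% of all genes (316) and 2 members, or 2.33%, both lower in ARP1, where 1.78% of all genes were higher and 0.836% lower. The contrasts share arrays, so the OPM2 values count in both of its comparisons.

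Calls in either direction were counted with the deposited scaling first, and the balance of directions was not tested against that of all genes. Higher calls made up 15 of 21 and 8 of 14 among the members in the comparisons of OPM2 with ARP1 and with OCI-MY5, while 10.1% and 11.4% of all genes were higher in OPM2 and 14.8% and 14.7% lower. The median difference over the tested members was 0.26 for OPM2 minus ARP1, 0.21 for OPM2 minus OCI-MY5 and −0.10 for ARP1 minus OCI-MY5, beside −0.04, −0.00 and 0.04 over all tested genes. Bright genes, those whose mean log2 value was 12 or more, a group chosen after the values were seen because 65 of the 86 members belong to it, had medians of 0.04, −0.09 and −0.15 without the members. Centring each array on its median moved the median of all genes to −0.30, −0.40 and −0.09, so values here are best read relative to all genes: the members' medians then lay 0.29 and 0.21 above and 0.13 below (−0.13), and 0.21, 0.26 and −0.02 from them after quantile normalization. The split of member calls was 12 higher and 7 lower (OPM2 against ARP1) and 10 and 7 (OPM2 against OCI-MY5) after quantile normalization, and 1 and 2, and 0 and 4, after centring. For all genes centring gave 413 higher and 1451 lower against ARP1, where the deposited scaling gave 1225 and 1793, and 487 and 1679 against OCI-MY5, where it gave 1371 and 1779. Quantile normalization gave 1492 higher and 1898 lower of all genes against ARP1, and 1412 and 1921 against OCI-MY5.

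**Figure D1:**
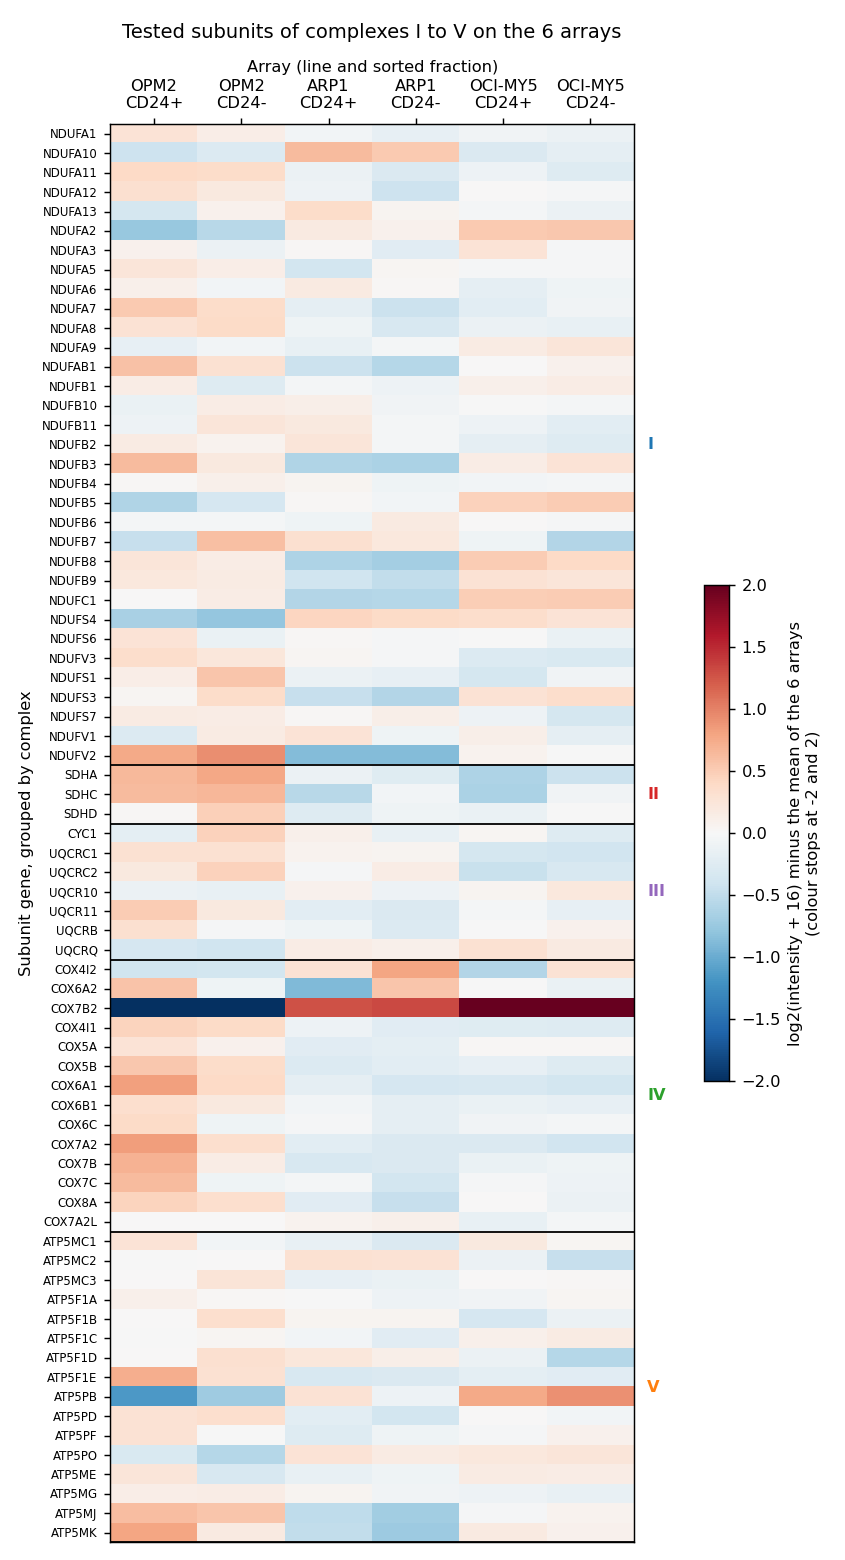
Log2(intensity + 16) of the 73 tested subunits on the 6 arrays, as the difference from each gene's mean over the arrays (red above, blue below; colour stops at −2 and 2), with subunits in rows grouped by complex I to V. The row of COX7B2 separates the OPM2 arrays from the other 4, and NDUFV2, SDHA and most complex IV rows are red on the OPM2 arrays.

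With so few arrays the counts turned on single libraries, and those of all genes moved as well. Without the line outside the comparison, called genes were 1604 (OPM2 against ARP1), 1702 (OPM2 against OCI-MY5) and 1183 (ARP1 against OCI-MY5). With all arrays they were 3018, 3150 and 316. For OPM2 against ARP1, 1 member was called without either ARP1 array, 4 without either OCI-MY5 array or the whole OCI-MY5 line, 17 without the CD24+ array of OPM2 and 24 without its CD24- array. For OPM2 against OCI-MY5, 1 member was called without either OCI-MY5 array, 5 without either ARP1 array or the ARP1 line, 12 without the CD24+ and 18 without the CD24- array of OPM2. For ARP1 against OCI-MY5, none was called without any 1 array of these lines, and 7 without either OPM2 array or the OPM2 line. Each comparison had 7 such fits, 1 without each array and 1 without the line outside it. A fit without an array of a compared line leaves that line 1 array, which is then assumed to vary like the pairs of the other lines. The calls that held in all 7 were NDUFV2 against ARP1 and COX7B2 against OCI-MY5.

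**Figure D2:**
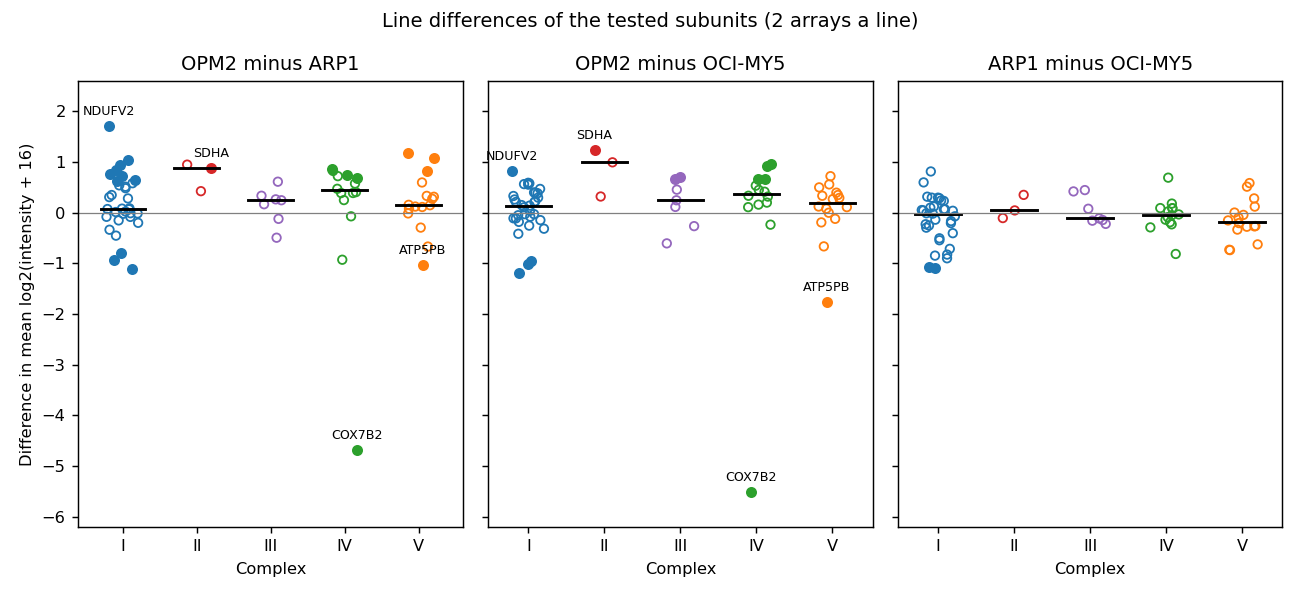
Difference between lines in mean log2(intensity + 16) for each tested subunit, by complex, 2 arrays a line; filled points had an adjusted p under 0.05, open ones did not, and black bars are medians. COX7B2 lies at −4.69 and −5.50 in the OPM2 contrasts, apart from every other subunit, where the bars of all 5 complexes lie above 0.

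Complex I had 11 of 33 subunits called between OPM2 and ARP1 (8 higher and 3 lower in OPM2), 4 between OPM2 and OCI-MY5 (1 and 3) and 2 between ARP1 and OCI-MY5. The shares were 33.3%, 12.1% and 6.06%, beside 25%, 26.1% and 2.62% of all tested genes. NDUFV2, a core subunit of the NADH-oxidising arm that holds an iron-sulfur cluster, had intensities of 27258 in the CD24+ and 30559 in the CD24- cells of OPM2, 8741 and 8762 in the same fractions of ARP1, and 16816 and 15869.9 in those of OCI-MY5. OPM2 was highest and ARP1 lowest, with no overlap between lines. OPM2 exceeded ARP1 by 1.72 ± 0.17 (log2 ± SE, n = 2 arrays a line; 3.29-fold, limma adjusted p = 0.00367) and OCI-MY5 by 0.82 ± 0.17 (adjusted p = 0.0252, held in 2 of the 7 leave-out fits). NDUFV1, the partner that binds NADH and FMN, had 6273 and 8479.7 in CD24+ and CD24- OPM2 cells, 9168 and 7163 in those of ARP1 and 8239 and 6715 in those of OCI-MY5. Its lines overlapped and the differences were −0.15 ± 0.25 and −0.03 ± 0.25 from ARP1 and OCI-MY5 (adjusted p = 0.69 and 0.946). NDUFS1, the largest core subunit of the same arm, differed by 0.48 ± 0.22 and 0.55 ± 0.22 (adjusted p = 0.175 and 0.132), with 3439 and 4614 in CD24+ and CD24- OPM2 cells, 2882 and 2805 in those of ARP1 and 2453 and 2987 in those of OCI-MY5.

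Accessory subunits of complex I, which surround the core and serve its assembly and stability, moved in both directions. NDUFS4, an accessory subunit whose loss in people impairs complex I assembly, was the lowest in OPM2 against ARP1, with 2113 in the CD24+ and 1932 in the CD24- cells of OPM2, 4463 and 4347 in the same fractions of ARP1, and 4223 and 3998 in those of OCI-MY5. Both OPM2 arrays lay below the other 4. The differences were −1.12 ± 0.17 from ARP1 and −1.02 ± 0.17 from OCI-MY5 (adjusted p = 0.0113 and 0.0132, each held in 5 of 7 leave-out fits). NDUFA2 gave the same order of OPM2 below the others, at 6101 and 7082 in CD24+ and CD24- OPM2 cells, 11714 and 10976 in those of ARP1 and 14862 and 15148 in those of OCI-MY5, with differences of −0.79 ± 0.18 and −1.19 ± 0.18 (adjusted p = 0.0321 and 0.0101). Its other probe sets are dim, and the one above the limit had differences of −0.05 and 0.49. NDUFA10 was highest in ARP1: it had 2056 and 2285 in CD24+ and CD24- OPM2 cells, 4291 and 3971 in those of ARP1 and 2249 and 2434 in those of OCI-MY5, and OPM2 differed from ARP1 by −0.92 ± 0.17 (adjusted p = 0.0202) and from OCI-MY5 by −0.11 ± 0.17 (adjusted p = 0.673). Another NDUFA10 probe set above the limit, at the dim end, differed by 1.05 between OPM2 and ARP1.

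NDUFB8 and NDUFC1, accessory subunits of the membrane arm, were the members called between ARP1 and OCI-MY5. NDUFB8 had 12089 in the CD24+ and 11419 in the CD24- cells of OPM2, 6685 and 6382 in the same fractions of ARP1, and 14607 and 13456 in those of OCI-MY5. ARP1 lay below both other lines, by −1.10 ± 0.17 against OCI-MY5 (adjusted p = 0.0466), and OPM2 exceeded ARP1 by 0.85 ± 0.17 (adjusted p = 0.0231). NDUFC1 followed the same order at 14049.5 and 15464 in CD24+ and CD24- OPM2 cells, 9317 and 9384 in those of ARP1 and 19533 and 19795 in those of OCI-MY5, with ARP1 minus OCI-MY5 at −1.07 ± 0.17 (adjusted p = 0.0483) and OPM2 minus ARP1 at 0.66 ± 0.17 (adjusted p = 0.0434). Both ARP1 calls against OCI-MY5 were lost without any 1 array of those lines. NDUFB3, also of the membrane arm, was lower in ARP1 than in OPM2 at 12017 and 8892 in CD24+ and CD24- OPM2 cells, 5079.6 and 4979.8 in those of ARP1 and 8559 and 9315 in those of OCI-MY5 (OPM2 minus ARP1 1.04 ± 0.21, adjusted p = 0.0254). Likewise higher in OPM2 than in ARP1 were NDUFAB1, the mitochondrial acyl carrier protein (0.94), NDUFA7 (0.76), NDUFS3 (0.73) and NDUFB9 (0.64), with adjusted p of 0.024, 0.0433, 0.049 and 0.0458. NDUFB5 was lower in OPM2 than in OCI-MY5 (−0.96 ± 0.18, adjusted p = 0.0194).

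Complex II, succinate dehydrogenase, is the one complex made wholly from nuclear genes and is shared with the citrate cycle. All 3 tested subunits had higher means in OPM2 than in ARP1 and in OCI-MY5, with medians of 0.88 and 0.995, and 1 of the 3 passed the test in each comparison. That share, 33.3%, stood beside 25% and 26.1% of all tested genes. After centring the means of 3 and 2 of the 3 were higher, and none passed. SDHA, the flavoprotein that oxidises succinate, had 9253 in the CD24+ and 10068 in the CD24- cells of OPM2, 5451 and 5002 in the same fractions of ARP1, and 3829 and 4361 in those of OCI-MY5. The OPM2 values lay above all others and OCI-MY5 gave the lowest. OPM2 exceeded ARP1 by 0.88 ± 0.18 (1.85-fold, adjusted p = 0.0243) and OCI-MY5 by 1.24 ± 0.18 (2.36-fold, adjusted p = 0.00942, held in 5 of 7 leave-out fits). Its probe set, like those of 7 members in all, carries the suffix for probes that can also bind related transcripts. SDHC, a membrane anchor, had 7979 and 8144 in CD24+ and CD24- OPM2 cells, 3508 and 4946 in those of ARP1 and 3319 and 4908 in those of OCI-MY5; OPM2 was above both lines by 0.95 ± 0.28 and 0.995 ± 0.28, short of the threshold (adjusted p = 0.065 and 0.0566). SDHD, the other anchor, had 10229 and 13940.3 in CD24+ and CD24- OPM2 cells, 8384 and 9421 in those of ARP1 and 9189.8 and 9946 in those of OCI-MY5 and differences of 0.43 ± 0.22 and 0.32 ± 0.22 (adjusted p = 0.215 and 0.329).

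Complex III had 2 of 7 subunits called, both core proteins and both higher in OPM2 than in OCI-MY5, and none between OPM2 and ARP1. The 2 calls were 28.6% of its subunits, beside 26.1% of all tested genes. Both calls were lost with the fraction as a term, after centring, without the filter on dim genes and with the mean of all probe sets. UQCRC1 had 4160.3 in the CD24+ and 4176 in the CD24- cells of OPM2, 3522 and 3499 in the same fractions of ARP1, and 2646 and 2591 in those of OCI-MY5. Fractions of a line differed by little, and the lines did not overlap. OPM2 exceeded OCI-MY5 by 0.67 ± 0.16 (1.59-fold, adjusted p = 0.0372, held in 2 of 7 leave-out fits) and ARP1 by 0.25 ± 0.16 (adjusted p = 0.306). UQCRC2, the other core protein, had 11806 and 14291 in CD24+ and CD24- OPM2 cells, 10226 and 11432 in those of ARP1 and 7607 and 8261 in those of OCI-MY5 and was 0.71 ± 0.19 above OCI-MY5 (adjusted p = 0.0498). CYC1, the cytochrome c1 subunit that hands electrons to cytochrome c, had 5882 and 9265 in CD24+ and CD24- OPM2 cells, 7172 and 6019 in those of ARP1 and 6921 and 5592 in those of OCI-MY5. Its lines overlapped, with differences of 0.17 ± 0.29 and 0.25 ± 0.29 (adjusted p = 0.696 and 0.556). The 4 small subunits were split, and none passed. UQCRQ and UQCR10 had lower values on both OPM2 arrays than on the other 4, and UQCR11 and UQCRB had higher means in OPM2, by 0.61 and 0.46 and by 0.34 and 0.12 against ARP1 and OCI-MY5. UQCRQ had 14338 and 13818 in CD24+ and CD24- OPM2 cells, 20151 and 19490.0 in those of ARP1 and 22343 and 20529 in those of OCI-MY5, at adjusted p of 0.0869 and 0.052.

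Complex IV, cytochrome c oxidase, has subunits that every tissue uses and alternative isoforms known from muscle, lung or testis. The 10 common subunits tested all had higher means in OPM2 than in ARP1 (median 0.63) and than in OCI-MY5 (median 0.49) with the deposited scaling and after quantile normalization, and 9 and 7 of 10 did after centring. Other tested genes with a mean log2 value from 14 to 15 had medians of 0.14 (against ARP1) and −0.03 (against OCI-MY5). Those at 15 and above had 0.23 and 0.14. Of the 10 common subunits, 3 passed the test against ARP1 and 4 against OCI-MY5. This made 30% and 40%, beside 25% and 26.1% of all tested genes. COX6A1, the ubiquitous form of subunit VIa, had 63650.5 in the CD24+ and 47702 in the CD24- cells of OPM2, 31922 and 28774 in the same fractions of ARP1, and 28987 and 27958 in those of OCI-MY5. OPM2 exceeded ARP1 by 0.86 ± 0.21 and OCI-MY5 by 0.95 ± 0.21 (adjusted p = 0.0402 and 0.0304); a second probe set under the limit ran the other way against ARP1 (−1.90). COX7A2, the non-muscle form of subunit VIIa, had 35744 and 25294 in CD24+ and CD24- OPM2 cells, 17451 and 16495 in those of ARP1 and 16496 and 15364 in those of OCI-MY5 and exceeded OCI-MY5 by 0.92 ± 0.23 (adjusted p = 0.0401). In both genes the CD24+ array of OPM2 was the highest and its CD24- array was still above ARP1 and OCI-MY5. COX5B, a subunit at the matrix side, had 22814 and 20254 in CD24+ and CD24- OPM2 cells, 12943 and 13636 in those of ARP1 and 14028 and 13175 in those of OCI-MY5, and COX4I1, the common form of subunit IV, 41261 and 39786 in CD24+ and CD24- OPM2 cells, 28348 and 26044 in those of ARP1 and 25602 and 25564 in those of OCI-MY5. The differences from OCI-MY5 were 0.66 ± 0.17 and 0.66 ± 0.17 (adjusted p = 0.046 and 0.041), and COX5B and COX8A exceeded ARP1 by 0.69 ± 0.17 and 0.74 ± 0.18 (adjusted p = 0.0416 and 0.0412). COX5A, COX6B1 and COX7B did not pass: COX7B was 0.72 ± 0.23 above ARP1 and 0.54 ± 0.23 above OCI-MY5 (adjusted p = 0.0799 and 0.155).

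COX7B2, a paralogue of COX7B known for expression in testis, showed the widest spread between lines of any member. Its intensities were 188 in the CD24+ and 37.7 in the CD24- cells of OPM2, 2639.8 and 2726 in the same fractions of ARP1, and 4770.5 and 4686 in those of OCI-MY5. The OPM2 CD24- value lay below the highest TrpnX control of its array (61.3) and the CD24+ value above that of its own (96.4), while both other lines were bright in both fractions. OPM2 was lower than ARP1 by −4.69 ± 0.62 (log2, adjusted p = 0.00811) and than OCI-MY5 by −5.50 ± 0.62 (adjusted p = 0.00489); the second call held in all 7 leave-out fits and the first in 5. With an OPM2 array at background and 16 added to each value, these differences are given without folds. ARP1 and OCI-MY5 differed by −0.81 ± 0.62 (adjusted p = 0.492). COX7B had 69935 and 47866 in CD24+ and CD24- OPM2 cells, 34592 and 35547 in those of ARP1 and 39292 and 40558 in those of OCI-MY5, with no line near the background. The other alternative isoforms were dim everywhere: COX4I2 ran from 85.4 to 248, COX6A2 from 39.9 to 137, COX6B2 from 10.5 to 110, COX8C from 0.867 to 138 and COX7A1 from 3.25 to 10.2, and none of the tested ones passed between lines. COX7A2L, which joins complexes III and IV into supercomplexes, had 5821 and 5805 in CD24+ and CD24- OPM2 cells, 6057 and 6155 in those of ARP1 and 5189 and 5588 in those of OCI-MY5 and did not pass.

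**Figure D3:**
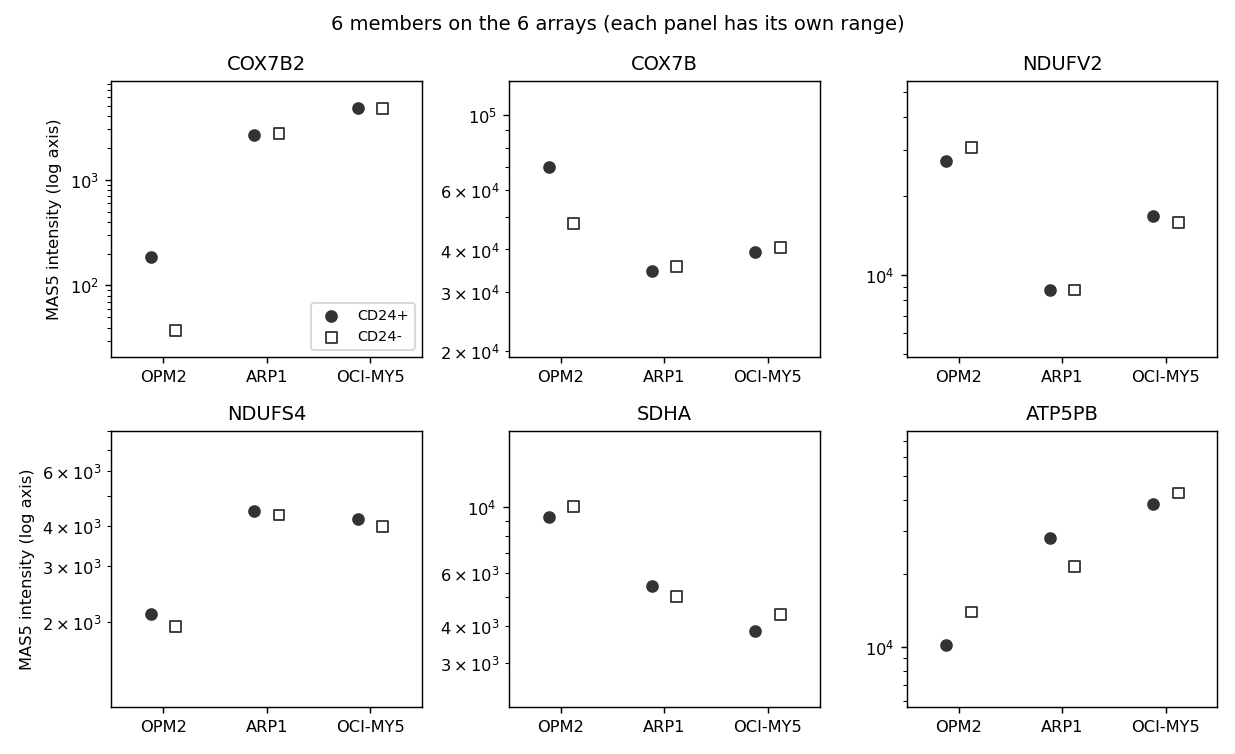
Deposited intensities of 6 members on the 6 arrays, on log axes with a range of their own in each panel; filled circles are CD24+ and open squares CD24- arrays, with lines from left to right OPM2, ARP1 and OCI-MY5. COX7B2 is at 188 and 37.7 in OPM2 and at 2639.8 to 4770.5 elsewhere, while COX7B, its common counterpart, is highest in OPM2.

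The promoters of this pair are shown because COX7B2 was lowest in the line where the probe set used for COX7B was highest. The COX7B differences did not pass. A dimmer COX7B probe set above the limit was lower in OPM2, by −0.11 against ARP1 and −0.58 against OCI-MY5. Sequences run from 250 bases before to 50 bases after the gene's start, from RefSeq on GRCh38.p14, with CG dinucleotides in capitals. COX7B2 lies at chr4:46909196-46909495, minus strand, and COX7B at chrX:77899218-77899517, plus strand.
COX7B2: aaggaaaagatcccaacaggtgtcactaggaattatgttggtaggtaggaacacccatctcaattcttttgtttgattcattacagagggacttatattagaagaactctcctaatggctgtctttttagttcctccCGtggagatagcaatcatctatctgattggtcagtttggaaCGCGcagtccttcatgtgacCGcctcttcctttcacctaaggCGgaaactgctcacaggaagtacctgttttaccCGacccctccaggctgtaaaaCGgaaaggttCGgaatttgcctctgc
COX7B: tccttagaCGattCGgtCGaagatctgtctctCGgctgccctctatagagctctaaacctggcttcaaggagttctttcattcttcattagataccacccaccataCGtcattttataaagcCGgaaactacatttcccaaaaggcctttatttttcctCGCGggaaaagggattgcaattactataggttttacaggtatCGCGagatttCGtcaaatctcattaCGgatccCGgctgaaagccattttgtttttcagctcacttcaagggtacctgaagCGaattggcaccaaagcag
The COX7B2 window holds 8 CG dinucleotides at 45.3% G and C, and that of COX7B 14 at 44.0%, where the median of all 27305 promoters was 13 and that of the 9863 promoters of tested genes 26.

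Letters of 3 factors known to act on respiratory genes were searched in the same windows on both strands: NRF1 (GCGCANGCG), the ETS site bound by GABP (CCGGAAGT) and YY1 (AAGATGGCG); none of the 3 contains another. RefSeq held a promoter for 76 of the 91 members, 65 of them subunits. At least 1 match was found in 33 of the 65 subunits (50.8%), beside 24.5% of the promoters of tested genes and 12.8% of all promoters. NRF1 letters were in 32.3% of subunit promoters (14.3% of tested genes, 7.79% of all), ETS letters in 15.4% (8.71% and 4.35%) and YY1 letters in 12.3% (3.93% and 1.81%). A longer NRF1 form with 1 more C at its 3′ end was searched first, and the shorter letters were taken after its values were seen. With the longer form a match to any of the 3 was found in 44.6% of subunit promoters, 21.8% of those of tested genes and 11.2% of all, and the NRF1 letters in 24.6%, 11.3% and 6.05%. By complex, a match was found in 15 of 31 promoters of complex I, 2 of 2 of complex II, 4 of 5 of complex III, 4 of 14 of complex IV and 8 of 13 of complex V. A match describes the letters only. Neither COX7B nor COX7B2 had one. The promoters below stand for a called subunit each of complexes II, III and IV with matches in capitals: 4 NRF1 matches in SDHA (chr5:218070-218369, plus strand), 2 NRF1 matches and a YY1 match in UQCRC1 (chr3:48609597-48609896, minus strand), and 2 ETS matches in COX5B (chr2:97645812-97646111, plus strand).
SDHA: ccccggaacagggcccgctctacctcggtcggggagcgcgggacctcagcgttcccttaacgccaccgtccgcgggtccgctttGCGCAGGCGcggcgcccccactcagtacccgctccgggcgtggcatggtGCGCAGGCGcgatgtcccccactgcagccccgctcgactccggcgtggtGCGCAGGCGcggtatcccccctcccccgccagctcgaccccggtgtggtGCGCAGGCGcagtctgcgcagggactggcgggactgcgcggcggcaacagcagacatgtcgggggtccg
UQCRC1: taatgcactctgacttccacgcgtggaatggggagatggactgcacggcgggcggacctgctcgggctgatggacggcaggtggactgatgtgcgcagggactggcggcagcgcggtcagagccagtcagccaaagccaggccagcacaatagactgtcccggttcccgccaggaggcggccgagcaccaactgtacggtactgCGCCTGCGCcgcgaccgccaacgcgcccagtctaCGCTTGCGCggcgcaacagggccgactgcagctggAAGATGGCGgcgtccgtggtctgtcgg
COX5B: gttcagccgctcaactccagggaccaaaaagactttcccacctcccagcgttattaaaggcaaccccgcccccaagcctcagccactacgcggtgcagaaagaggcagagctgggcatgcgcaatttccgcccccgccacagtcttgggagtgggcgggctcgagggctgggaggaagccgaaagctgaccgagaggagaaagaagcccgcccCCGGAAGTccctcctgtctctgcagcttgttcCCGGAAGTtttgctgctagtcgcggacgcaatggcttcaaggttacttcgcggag

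Complex V had 4 of 16 tested subunits called between OPM2 and ARP1 (3 higher and 1 lower in OPM2) and 1 between OPM2 and OCI-MY5. The shares of 25% and 6.25% compare with 25% and 26.1% of all tested genes. ATP5PB, the b subunit of the peripheral stalk that holds the catalytic head still, had 10235 in the CD24+ and 13925 in the CD24- cells of OPM2, 27943 and 21332 in the same fractions of ARP1, and 38452 and 42733 in those of OCI-MY5. OPM2 was lowest and OCI-MY5 highest with no overlap. OPM2 was lower than OCI-MY5 by −1.76 ± 0.25 (log2; 3.39-fold lower, adjusted p = 0.00878, held in 5 of 7 leave-out fits) and than ARP1 by −1.03 ± 0.25 (adjusted p = 0.0382). Another stalk subunit, ATP5PO, was also lowest in OPM2, 24674 and 20521 in CD24+ and CD24- OPM2 cells, 37164 and 34397 in those of ARP1 and 35280.1 and 36061 in those of OCI-MY5, at adjusted p of 0.0538 and 0.0531. The other 2 peripheral stalk subunits tested had higher means in OPM2, ATP5PD by 0.60 and 0.33 and ATP5PF by 0.32 and 0.11, and did not pass. ATP5MJ and ATP5MK, small membrane subunits, were called higher in OPM2 than in ARP1. ATP5MJ had 39069.9 and 37403 in CD24+ and CD24- OPM2 cells, 17975 and 15739 in those of ARP1 and 25169 and 26745 in those of OCI-MY5 and exceeded ARP1 by 1.18 ± 0.17 in OPM2 (adjusted p = 0.0108). ATP5MK had 86594 and 56793 in CD24+ and CD24- OPM2 cells, 35730.3 and 30468 in those of ARP1 and 56781 and 53335 in those of OCI-MY5, 1.09 ± 0.26 above ARP1 in OPM2 (adjusted p = 0.0375). ATP5F1E, of the central stalk, was 0.82 ± 0.21 above ARP1 in OPM2 (adjusted p = 0.044). Of the subunits of the catalytic head, ATP5F1A had 52723 and 50011 in CD24+ and CD24- OPM2 cells, 48822 and 45594 in those of ARP1 and 46896 and 50358 in those of OCI-MY5, and ATP5F1B 23297 and 29182 in CD24+ and CD24- OPM2 cells, 24014 and 24197 in those of ARP1 and 18353 and 21384 in those of OCI-MY5, with adjusted p of 0.205 to 0.912 between lines. The c ring genes ATP5MC1, ATP5MC2 and ATP5MC3, which code for the same mature proton-carrying protein, did not pass between lines. ATP5IF1, which inhibits the enzyme when it runs backwards, had 4322 and 4502 in CD24+ and CD24- OPM2 cells, 3548 and 4752 in those of ARP1 and 4322 and 4494 in those of OCI-MY5. On this probe set its differences between lines were at most 0.10 in size. Another about as bright differed by 0.20 (OPM2 minus ARP1), −0.02 (OPM2 minus OCI-MY5) and −0.22 (ARP1 minus OCI-MY5). A dimmer one above the limit differed by −0.50, −1.04 and −0.55 in the same order.

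Among the complex I assembly factors, 1 of 8 passed in each OPM2 comparison, or 12.5%, beside 25% and 26.1% of all tested genes. NDUFAF2 had 2169 in the CD24+ and 2205 in the CD24- cells of OPM2, 3682 and 3670.3 in the same fractions of ARP1, and 3883 and 3833 in those of OCI-MY5; it was lower in OPM2 than in ARP1 by −0.74 ± 0.16 and than in OCI-MY5 by −0.81 ± 0.16 (adjusted p = 0.0287 and 0.0219, each held in 2 of 7 leave-out fits). The remaining factors, NDUFAF1 and NDUFAF3 to NDUFAF8, had adjusted p of at least 0.0673 between lines.

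Between CD24+ and CD24- cells no member passed. The background was 0 called of 12078 genes (0%), with limma and without or with the line as a block, and the lowest adjusted p of a member was 0.847 with the block. At an unadjusted p under 0.05 there were 149 genes and 0 members without the block, and 560 genes and 1 member, the antisense transcript NDUFV2-AS1, with it. A second NDUFV2-AS1 probe set above the limit had the opposite sign in all 3 lines. The median difference over the members was 0.05, beside 0.03 over all tested genes, and it was 0.06 in complex I, −0.24 in complex II, 0.02 in complex III, 0.13 in complex IV and 0.06 in complex V. Values were higher in CD24+ cells of all 3 lines for 21 of 86 members and lower in all for 11, where 16.9% and 12.2% of all genes did so, and 22 and 9 after quantile normalization. After centring, which moved the median of all genes to −0.30, these counts were 0 and 43. For all genes they were 1750 and 1631 of 12075 after quantile normalization, and 487 and 4175 of 12078 after centring.

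The members with the same sign in all lines and the largest mean difference in their complex changed by less than the threshold each. COX7C, a small common subunit of complex IV, had 81715 and 49467 in CD24+ and CD24- OPM2 cells, 51144 and 41044 in those of ARP1 and 51724 and 49116 in those of OCI-MY5; its differences were 0.72 (OPM2), 0.32 (ARP1) and 0.07 (OCI-MY5), a mean of 0.37 ± 0.33 (SD, n = 3 lines; adjusted p with the block = 0.847). A COX7C probe set nearly as bright differed by 0.24 (OPM2), −0.02 (ARP1) and −0.01 (OCI-MY5). A dimmer one differed by 0.28, 0.09 and −0.002, so neither kept the same sign in all lines. ATP5MK differed by 0.61 (OPM2), 0.23 (ARP1) and 0.09 (OCI-MY5) and ATP5MC1 by 0.34 (OPM2), 0.13 (ARP1) and 0.16 (OCI-MY5) (adjusted p with the block = 0.847 and 0.847). In complex I the largest were NDUFA3, at 0.20 (OPM2), 0.24 (ARP1) and 0.30 (OCI-MY5), and NDUFS6, at 0.40 (OPM2), 0.04 (ARP1) and 0.11 (OCI-MY5). In complex III UQCR11 differed by 0.31 (OPM2), 0.08 (ARP1) and 0.11 (OCI-MY5) and UQCRC2 by −0.28 (OPM2), −0.16 (ARP1) and −0.12 (OCI-MY5). In complex II, SDHA differed by −0.12 (OPM2), 0.12 (ARP1) and −0.19 (OCI-MY5), SDHC by −0.03 (OPM2), −0.49 (ARP1) and −0.56 (OCI-MY5), a mean of −0.36 ± 0.29, and SDHD by −0.45 (OPM2), −0.17 (ARP1) and −0.11 (OCI-MY5), a mean of −0.24 ± 0.18 (adjusted p with the block = 0.847 and 0.847). The next brightest SDHC probe set above the limit differed by −0.13 (OPM2), 0.14 (ARP1) and 0.65 (OCI-MY5). Another SDHC probe set differed by −0.65, 0.54 and 0.65, and the dimmer ones were of mixed sign. Centring lowers each gene's mean difference by the same amount, which puts NDUFA3, NDUFS6, UQCR11, ATP5MK and ATP5MC1 below 0. COX4I2, a dim isoform, differed by −0.03 (OPM2), −0.50 (ARP1) and −0.87 (OCI-MY5).

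Within lines, which have 1 array a fraction and so no test, the values of OPM2 lay furthest apart. All 10 common complex IV subunits were higher on the CD24+ than on the CD24- array of OPM2, with a median of 0.30, against 7 of 10 (median 0.12) in ARP1 and 8 of 10 (median 0.04) in OCI-MY5. COX7B, for example, differed by 0.55 (OPM2), −0.04 (ARP1) and −0.05 (OCI-MY5). Core subunits of complex I went the other way in OPM2 (median −0.33, 1 of 5 higher), with medians of 0.04 in ARP1 and 0.08 in OCI-MY5. These core subunits had mean log2 values below 14, and the common complex IV subunits, COX5B apart, above it. Other tested genes had OPM2 medians of −0.17 (12 to 13), −0.12 (13 to 14), −0.01 (14 to 15) and 0.51 (15 and above). The contrast between these groups was thus not separated from signal, and it was not tested. NDUFV1 differed by −0.43 (OPM2), 0.36 (ARP1) and 0.29 (OCI-MY5) and NDUFB7, an accessory subunit, by −1.07 (OPM2), 0.11 (ARP1) and 0.51 (OCI-MY5). At least a 1.5-fold rise was seen in 6 members in OPM2 and in none in ARP1 and OCI-MY5, and a fall in 3, 3 and 1, where 23.2%, 6.99% and 10.1% of all genes were that much higher and 13%, 6.65% and 5.32% lower.

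**Figure D4:**
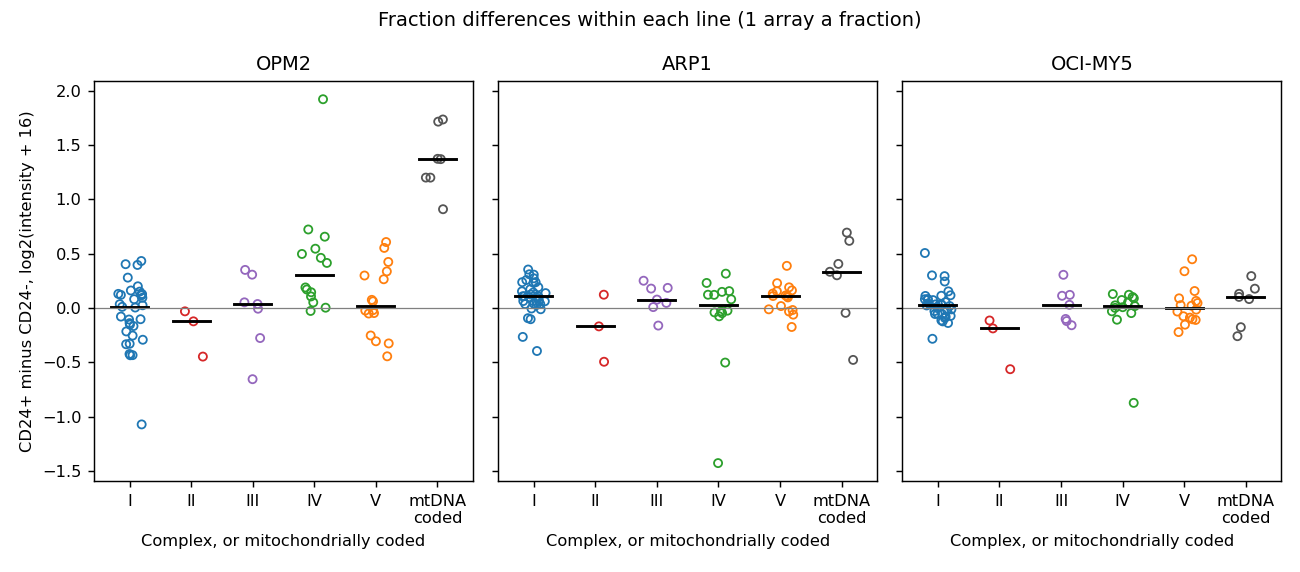
Difference between the CD24+ and the CD24- array of each line in log2(intensity + 16), by complex, with the subunits coded by mitochondrial DNA at the right of each panel; circles are genes and black bars medians. Complex IV has a median of 0.30 in OPM2, and the mitochondrially coded genes have medians of 1.37 (OPM2), 0.33 (ARP1) and 0.10 (OCI-MY5).

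Subunits coded by mitochondrial DNA lay furthest apart between the OPM2 fractions. Of 26 listed names 7 had a probe set of their own (ND2, ND4, ND6, COX1, COX2, COX3 and ATP6), and all 7 were higher on the CD24+ array of OPM2, by a median of 1.37, against 5 of 7 in ARP1 (median 0.33) and 5 of 7 in OCI-MY5 (median 0.10). COX1, the catalytic subunit of complex IV, had 143281 and 62306 in CD24+ and CD24- OPM2 cells, 76956 and 50096 in those of ARP1 and 94377 and 87865 in those of OCI-MY5. None passed between the fractions. The CD24+ array of OPM2 exceeded every other array in spike-in signal and in median intensity. Its ACTB ratio of 27.1 did not set it apart, since the CD24- array of OCI-MY5 had 23.2. The same ratio for GAPDH was 5.98 and 5.16 on these arrays. The part of these measures in the mitochondrially coded values was not tested.

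Signal moved with the fraction difference of OPM2. Over tested genes other than the members, in bands of mean log2 value chosen after the values were seen, the median CD24+ minus CD24- difference in OPM2 was −0.17 from 12 to 13 (813 genes), −0.12 from 13 to 14 (371), −0.01 from 14 to 15 (158) and 0.51 at 15 and above (112). The members' medians in the same bands were −0.08, −0.14, 0.09 and 0.30. In ARP1 the other genes had 0.02, 0.03, 0.05 and 0.17, and in OCI-MY5 −0.03, −0.06, −0.03 and 0.04. In the top band, which holds complex IV subunits among others, the members' median in OPM2 lay below that of the other genes, and this difference was not tested. The part of the OPM2 CD24+ array in these differences was not tested further than by leaving it out. Without it the median over the members was −0.05, against 0.05 with all arrays, and no member passed.

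**Figure D5:**
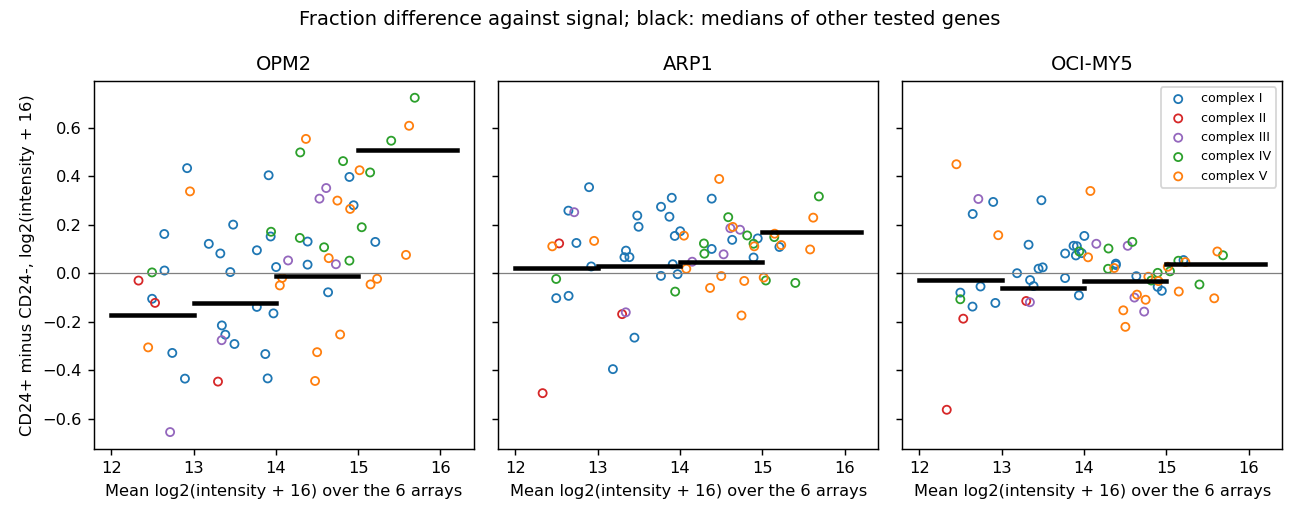
Difference between the CD24+ and CD24- array of each line against the mean log2(intensity + 16) of the gene over the 6 arrays, for tested subunits with a mean of at least 12; circles are coloured by complex and black lines are the medians of other tested genes in each band. In OPM2 the black lines climb to 0.51 at 15 and above, and the subunits in that band have points on both sides of 0.

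Genes that serve the same pathway were taken from lists. The list of assembly factors overlaps with the NDUFAF members described above, so its counts are not separate from theirs. Of 55 tested assembly factors, 13 were called between OPM2 and ARP1 (5 higher and 8 lower in OPM2) and 13 between OPM2 and OCI-MY5 (6 and 7). Each count was 23.6% of the list, beside 25% and 26.1% of all tested genes. TIMMDC1, a membrane-arm assembly factor of complex I, had 1177 and 1142 in CD24+ and CD24- OPM2 cells, 4547 and 4082 in those of ARP1 and 5006 and 5429 in those of OCI-MY5 and was −1.88 ± 0.17 and −2.15 ± 0.17 in OPM2 against ARP1 and OCI-MY5 (adjusted p = 0.00305 and 0.00203). COX16, an assembly factor of complex IV, differed by −1.62 and −1.81, and LYRM7, which serves complex III, by −1.66 and −2.07. ECSIT and COX19 were lower against ARP1 (−2.15 and −3.09, adjusted p = 0.0496 and 0.0439).

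Of 22 regulators, 6 were called in each OPM2 comparison, 4 higher and 2 lower in OPM2 against ARP1 and 1 higher and 5 lower against OCI-MY5. The 6 calls were 27.3% of the list, beside 25% (ARP1) and 26.1% (OCI-MY5) of all tested genes. PPARGC1A, the coactivator PGC-1α, which drives mitochondrial gene expression, was dim, with 202 and 357 in CD24+ and CD24- OPM2 cells, 57.4 and 101 in those of ARP1 and 74.2 and 50.9 in those of OCI-MY5, and higher in OPM2 by 1.62 ± 0.38 and 1.88 ± 0.38 (adjusted p = 0.0357 and 0.0237). GABPB1, a subunit of GABP, exceeded ARP1 by 1.07 ± 0.26 in OPM2 (adjusted p = 0.0407). MTERF1 and TEFM, which act on transcription of mitochondrial DNA, were lower in OPM2: MTERF1 by −1.72 ± 0.45 and −2.12 ± 0.45, and TEFM against OCI-MY5 by −1.72 ± 0.18 (adjusted p = 0.0478, 0.0271 and 0.00426). TWNK, the mitochondrial helicase, was lower in ARP1 than in OCI-MY5 (−1.21 ± 0.18, adjusted p = 0.0453).

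Of 22 tested genes of the citrate cycle and pyruvate dehydrogenase, 5 were called against ARP1 (3 higher in OPM2) and 7 against OCI-MY5 (5 higher). As shares these were 22.7% and 31.8%, beside 25% and 26.1% of all tested genes. PDK1, the kinase that shuts off pyruvate dehydrogenase, had 5731 and 5762 in CD24+ and CD24- OPM2 cells, 1229.8 and 1372 in those of ARP1 and 1261 and 1370.1 in those of OCI-MY5 and was higher in OPM2 by 2.13 ± 0.17 and 2.11 ± 0.17 (adjusted p = 0.00216 and 0.00209). IDH2, the NADP-dependent isocitrate dehydrogenase, exceeded OCI-MY5 by 2.20 ± 0.38 and IDH3A, of the NAD-dependent enzyme, by 1.17 ± 0.18, while IDH3G was lower than in ARP1 (−1.20 ± 0.32) and MPC2, of the pyruvate carrier, higher (1.07 ± 0.24). The 29 electron carriers and inner membrane carriers had 20.7% and 17.2% called against ARP1 and OCI-MY5, beside 25% and 26.1% of all genes. Against ARP1 6 were called (1 higher in OPM2), and against OCI-MY5 5 were (1 higher). The higher one was UCP2, an uncoupling protein of the inner membrane, with 22394 and 16607 in CD24+ and CD24- OPM2 cells, 717 and 748 in those of ARP1 and 1852 and 1732 in those of OCI-MY5: OPM2 exceeded ARP1 25.8-fold and OCI-MY5 10.7-fold (4.69 ± 0.21 and 3.42 ± 0.21, adjusted p = 0.000619 and 0.00107). SLC25A4, an ATP and ADP exchanger, and VDAC1, the outer membrane channel, were lower in OPM2, by −1.49 and −1.67 and by −1.25 and −1.42. ETFDH and SQOR, which feed electrons to coenzyme Q, were lower than in OCI-MY5 (−1.72 and −1.74). Of the 7 mitochondrially coded genes 6 had higher means in OPM2 than in ARP1 (median 0.82) and 6 than in OCI-MY5 (median 0.64), none of them past the test, and the 1 call of that list was ND6, lower in OPM2 than in OCI-MY5 (−1.60 ± 0.33, adjusted p = 0.0251). The higher OPM2 means came with its CD24+ array. Median intensities of the 7 genes were 156934 on that array and 62306 on the CD24- array of OPM2. They were 64468 and 50096 in CD24+ and CD24- ARP1 cells and 78922 and 87865 in those of OCI-MY5. No gene of any of these lists passed between CD24+ and CD24- cells.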

How the data were processed

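Arrays were of the Affymetrix type U133 Plus 2.0, 1 for the RNA of each sorted sample. The authors deposited MAS5 intensities, 1 value per probe set and array on a linear scale, made with Affymetrix Expression Console 1.1 per the submitters' processing notes; MAS5 subtracts background and mismatch signal and scales each array by 1 factor. Of 54675 probe sets, 41091 name 1 gene in the platform's annotation, updated to current symbols by Entrez ID; each gene took its probe set with the highest mean. Values were used as log2(intensity + 16), and genes with a mean of at least 6.36, the median of probe sets other than controls, entered limma 3.58.1 under R 4.3.3 (lmFit and eBayes, two-sided, Benjamini-Hochberg, 0.05). The fraction fit had no block; the line as a block was an alternative. Numbers in the titles stand for lines, and deviations from group means correlated at 0.77, 0.70 and 0.71 within OPM2, ARP1 and OCI-MY5 and at −0.58 to 0.15 between lines, so they pair the samples. With 1 array per fraction and line, p-values measure the spread between these samples, which may be technical. Genes named were core and isoform subunits, the 4 highest and 4 lowest called members per line comparison, the 2 largest same-sign fraction differences per complex, and up to 3 called genes per pathway list and comparison. Members and lists were chosen with earlier results of these data known. Fits were tested on simulated data.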

Additional observations from a re-analysis of the deposited data

How the results depend on the processing

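No gene and no member was called between CD24+ and CD24- cells under any setting run, the replicate block (0 genes, 0 members) and each left-out array or line included. Counts below give members, then genes where they moved by over 1.5 times, for OPM2 against ARP1 (main 21 and 3018), OPM2 against OCI-MY5 (14 and 3150) and ARP1 against OCI-MY5 (2 and 316). Without a filter on dim genes they were 3 and 1430, 4 and 1640, and 0 and 0. With the limit at the 75th percentile members were 34, 25 and 8, with 1281 genes in the last comparison, and with an intensity trend 38, 27 and 9, with 1375 genes. After centring they were 3 and 1864, 4, and 0 and 146; with the mean of all probe sets 12, 8, and 1 and 137; with the fraction as a term 11 in the first and 0 and 6 in the last. In the last comparison a pseudocount of 1 gave 0 and 163, a pseudocount of 64 gave 747 genes, and quantile normalization gave 1 member. Leaving out an array or a line gave 1 to 24 members and 680 to 4229 genes, 1 to 18 and 952 to 4575, and 0 to 7 and 0 to 1183, and medians of the members from 0.22 to 0.34, 0.18 to 0.26 and −0.092 to −0.080, and between fractions from −0.048 to 0.12. Centring moved the members' medians to −0.28 between fractions (all genes −0.30) and to −0.0096, −0.18 and −0.23 between lines, quantile normalization to 0.19 for OPM2 against ARP1 and −0.046 for ARP1 against OCI-MY5, and the mean of all probe sets to 0.21 and 0.13 for the OPM2 comparisons. Set against bright genes, chosen after seeing the data, the ARP1 minus OCI-MY5 median lay 0.052 above. The fraction median of all tested genes was 0.07 without the filter, −0.01 at the 75th percentile and 0.00 after quantile normalization. Centring, which lowers every mean fraction difference by the same amount, put those of NDUFA3 (−0.085), NDUFS6 (−0.15), UQCR11 (−0.16), ATP5MK (−0.022) and ATP5MC1 (−0.12) below 0, and over the left-out arrays and lines UQCR11 ran from −0.047 to 0.32 and ATP5MK from −0.0048 to 0.63, the lowest without the CD24+ array of OPM2, and UQCRC2 from −0.39 to 0.00031, the highest without its CD24- array. With the mean of all probe sets COX6A1 and NDUFA10 turned to −0.52 and 0.20 for OPM2 minus ARP1. The causes were not tested, apart from fewer genes or arrays by construction. Of the called members, 2 of 21, 2 of 14 and 0 of 2 held in all 10 settings that kept every array: NDUFV2 and COX7B2 against ARP1, and COX7B2 and ATP5PB against OCI-MY5.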

Other observations

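COXFA4, a complex IV subunit long named NDUFA4, falls outside the rule by its current symbol. It had 24426 and 16782 in CD24+ and CD24- OPM2 cells, 25326 and 24847 in those of ARP1 and 30169.8 and 28828 in those of OCI-MY5, and OPM2 differed from ARP1 by −0.31 ± 0.23 and from OCI-MY5 by −0.54 ± 0.23 (limma adjusted p = 0.371 and 0.149), so it did not share the higher OPM2 means of the common complex IV subunits. COXFA4L2, its paralogue, ran from 7.09 to 64.8 and was under the limit. The antisense transcript NDUFV2-AS1 had 204 and 425 in CD24+ and CD24- OPM2 cells, 23.3 and 101 in those of ARP1 and 97.0 and 125 in those of OCI-MY5. On this probe set the transcript was lower in CD24+ cells of all 3 lines, by −1.01 (OPM2), −1.58 (ARP1) and −0.32 (OCI-MY5). Its unadjusted limma p with the line as a block was 0.0263, and its adjusted p 0.847. A second probe set, also above the limit, was higher in CD24+ cells of all 3 lines, by 1.31 (OPM2), 0.86 (ARP1) and 0.14 (OCI-MY5).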
